A study of Mus musculus with 4 samples.

Results

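The genes described here make, bind, sense and break down retinoic acid, and 9 of them were listed by symbol: Aldh1a1, Aldh1a2, Aldh1a3, Crabp1, Crabp2, Rara, Rarb, Rarg and Cyp26b1. All 9 were measured, each by 1 probe set annotated to that symbol alone, among 19937 genes in all. Where a gene of the wider set had several such probe sets, the one with the highest mean over the 4 arrays stood for it. Expression was compared between late-onset, high-grade and early-onset, low-grade gliomas. In all samples the tumours were induced in C57/Bl6 mice by injecting embryos, at embryonic day 14, with a retrovirus that expresses PDGF-B and EGFP, and EGFP-positive cells were sorted from the dissociated tumours. The late-onset group held tumour 1 and tumour 2, each a single glioma. The early-onset group held pool 1 and pool 2, each made of cells from 2 gliomas. The labels give the onset as early or late, without ages, and every sample carried the PDGF-B/EGFP virus, so no cell without PDGF-B overexpression was compared. They call the samples biological replicates. Onset, grade and pooling go together in these groups and cannot be told apart.

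Retinoic acid is the active form of vitamin A. Cells oxidise retinol to retinal with retinol dehydrogenases such as Rdh10, and retinal to retinoic acid with the retinaldehyde dehydrogenases Aldh1a1, Aldh1a2 and Aldh1a3. The cellular binding proteins Crabp1 and Crabp2 carry the product, the receptors encoded by Rara, Rarb and Rarg pair with RXR receptors on DNA elements built from repeated half-sites, and CYP26 enzymes such as Cyp26b1 destroy it. In the developing nervous system retinoic acid patterns the hindbrain and spinal cord and promotes differentiation, and in the embryonic brain the meninges are a known source.

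One such element can be read in the promoter of Rarb, the classic retinoic acid response element through which Rarb responds to its own ligand. Its part in the Rarb values given below was not tested. The RefSeq window of Rarb (GRCm38.p6, chr14:16575427-16575726, minus strand, from 250 bases before to 50 after the start site) is printed with the repeated letters GTTCA of the element in capitals.

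Rarb window: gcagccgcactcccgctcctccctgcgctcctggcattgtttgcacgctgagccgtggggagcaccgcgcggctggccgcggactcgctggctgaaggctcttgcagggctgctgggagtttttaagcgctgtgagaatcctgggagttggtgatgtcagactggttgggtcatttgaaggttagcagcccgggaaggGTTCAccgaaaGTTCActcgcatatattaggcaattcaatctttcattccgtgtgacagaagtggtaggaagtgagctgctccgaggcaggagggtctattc

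With 1 more base on the left, the element is GGTTCAccgaaAGTTCA, a pair of 6-base half-sites in capitals with a spacer of 5 bases. It lay 53 to 37 bases before the start site, at chr14:16575513-16575529 on the minus strand. The pattern GTTCA, then 6 bases of any kind, then GTTCA again, searched on both strands, was found in 25 of 32851 promoter windows, or 0.0761% of them. Among the measured genes 12 had it, and Rarb was the only one of the 7 listed genes with a window. Those 12 included Cyp26a1, which encodes the retinoic acid hydroxylase best known as an induced target of retinoic acid, and 2 genes that changed, Tnfsf13b and Dmd, chosen after their values were seen. The 16-base matches of these genes (GRCm38.p6) are shown with the fixed letters in capitals, so that the spacers can be compared.

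Rarb, chr14:16575513-16575528, minus strand: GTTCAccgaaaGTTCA
Cyp26a1, chr19:37697776-37697791, minus strand: GTTCAcccaaaGTTCA
Tnfsf13b, chr8:10006246-10006261, plus strand: GTTCAgatggaGTTCA
Dmd, chrX:82948701-82948716, minus strand: GTTCAaataatGTTCA

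The Cyp26a1 match ran on the strand opposite to the gene, with its outermost base 32 bases before the start site of the window. RefSeq places the gene at chr19:37697738-37701536 on the plus strand, so the match lies inside the annotated gene and upstream of a further start site. The repeats of AGGTCA with 5 or with 2 bases of any kind between were also searched on both strands. They were in 3 windows each and in none of those of the 7 listed genes with a window. The single half-site AGGTCA, which both of these contain, was in 16.3% of all windows and in windows of Rara and Rarg. The shorter core GTTCA, which the longer Rarb pattern contains, was in 35.2% of all windows and in those of Rara and Rarb. Windows were at hand for 7 of the 9 genes, 12 windows in all. Aldh1a3 and Crabp2 had no window to search.

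Of the 9 genes, Aldh1a3, Rarb and Rara rose and Aldh1a1 fell in late-onset cells, each by at least 2-fold, and 5 did not pass the test. The test was limma across all 19937 genes with a Benjamini-Hochberg adjusted p of 0.05 as the threshold. That is 4 of 9, against 14.7% of all genes (6.59% higher and 8.12% lower), and 5.4% of all genes both passed and changed by at least 2-fold. The median log2 difference over the 9 genes was 0.41, against -0.0091 over all genes. The samples of the 2 groups did not overlap in 8 of the 9 genes, with late-onset higher in 6 and lower in 2. The groups did not overlap in 58.9% of all genes, so such separation is common in these samples.

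**Figure D1:**
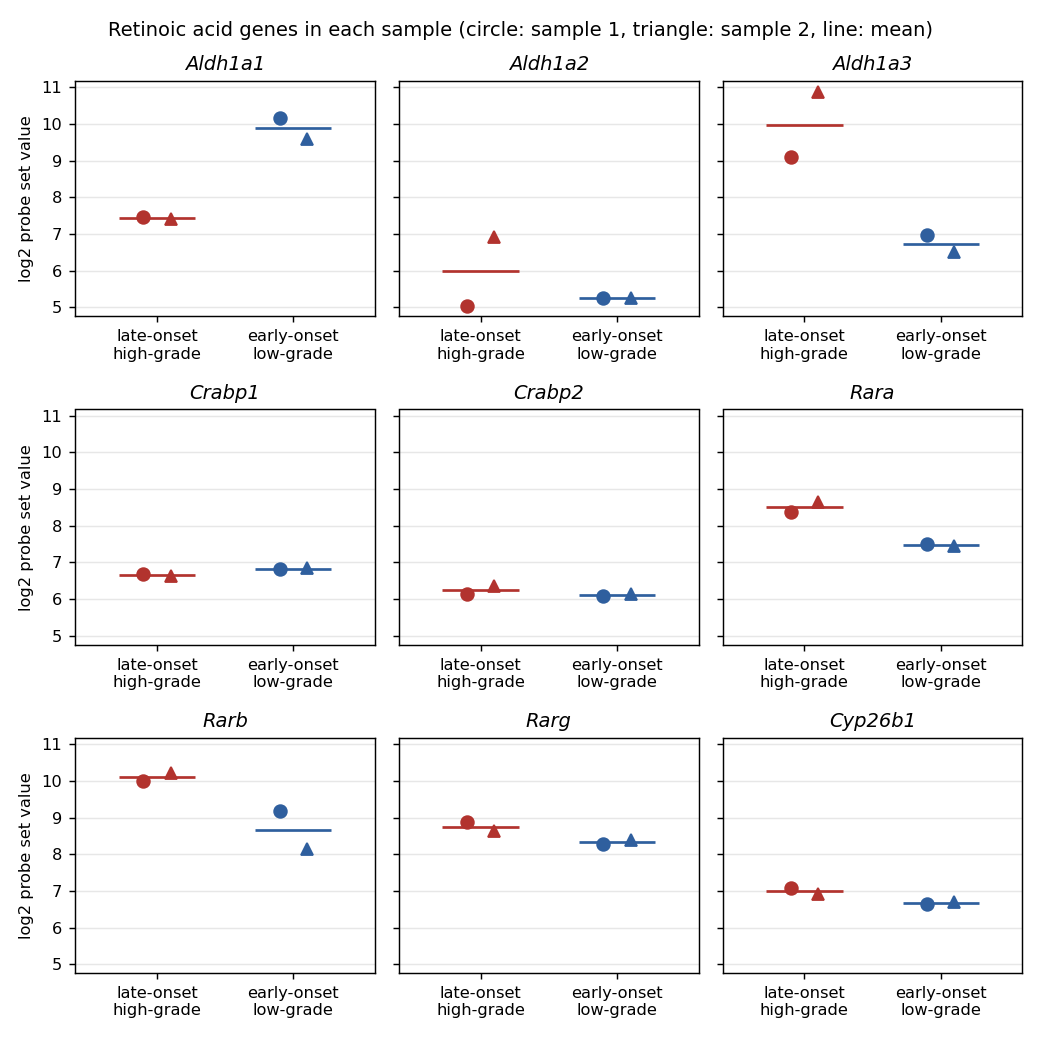
Log2 probe set value (y axis) of each of the 9 genes in the late-onset (red, left) and early-onset (blue, right) samples; circles are tumour 1 or pool 1, triangles tumour 2 or pool 2, and lines the mean of 2 samples. Aldh1a1 lies near 7.43 in late-onset and 9.89 in early-onset cells, Aldh1a3 shows the reverse order, and Aldh1a2 is raised in tumour 2 alone; heights are comparable within a panel, not between panels.

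The samples were close within groups and apart between them. Over all probe sets the tumours correlated at r = 0.988 and the pools at r = 0.992, against 0.972 to 0.974 across groups. Markers of oligodendrocyte progenitors, the cells these gliomas resemble, were bright on average in every sample. Their mean log2 value over 10 genes was 11.38 and 11.18 in the tumours and 11.76 and 11.82 in the pools. Neu4 was dimmer, at 7.82 and 6.44 in the tumours, against 9.07 and 8.82 in the pools. Of the 10 genes 2 fell, Pdgfra (-0.45) and C1ql1 (-0.84), and none rose. Of 15 microglia and macrophage markers 14 fell and none rose, where 8.12% of all genes fell and 6.59% rose. The mean of these markers was 6.73 and 7.15 in the tumours, against 10.25 and 10.06 in the pools. Of 12 meningeal and fibroblast markers none passed the test in either direction, but all 12 were higher in tumour 2 than in tumour 1, 7 of them by over 2-fold. Their mean was 6.14 in tumour 1 and 7.99 in tumour 2, against 6.52 and 6.47 in the pools. Over all genes the median absolute difference between the tumours was 0.14 on the log2 scale. Choroid plexus markers, 6 genes, had a mean of 5.40 and 5.30 in the tumours, against 6.001 in pool 1 and 7.91 in pool 2. No defining marker had a value of 0, which log2 array summaries do not give. In such sorted bulk samples, fewer cells of a type and less RNA per cell cannot be told apart.

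The enzymes that make retinoic acid moved in opposite directions. Aldh1a3 (chr7:66390892-66427477, GRCm38.p6) encodes the retinaldehyde dehydrogenase that, in glioblastoma and other cancers, is known as a marker of mesenchymal tumour cells. Its log2 value was 9.09 in tumour 1 and 10.88 in tumour 2, against 6.96 in pool 1 and 6.52 in pool 2. Both tumours lay above both pools, and tumour 2 was the highest by a wide margin. The difference was 3.25 on the log2 scale (SE 0.58, 95% interval 1.79 to 4.71, limma adjusted p 0.0236), which is a 9.49-fold higher level. It was 2.35 without tumour 2, still past the threshold, and the call was lost without pool 1 (adjusted p 0.0873) or pool 2 (0.127).

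Aldh1a1 (chr19:20492583-20643463) encodes the retinaldehyde dehydrogenase of dopaminergic neurons and some glia, and it fell. Its log2 value was 7.46 and 7.40 in the tumours, against 10.17 and 9.60 in the pools. The tumours were almost identical and far below either pool. The difference was -2.46 (SE 0.20, 95% interval -2.96 to -1.95, limma adjusted p 0.00372), so late-onset cells had 5.49-fold less signal. This was the one of the 4 calls that held in all 15 other settings tried, with adjusted p between 0.00281 and 0.0208. Microglia and macrophage markers fell beside it, as given above. Astrocyte markers did too, with 6 of 10 lower and none higher, at a mean of 7.93 and 8.46 in the tumours, against 9.11 and 9.42 in the pools. Of 8 neuron markers 5 fell and 1 rose, at a mean of 7.05 and 7.37 in the tumours, against 7.76 and 8.05 in the pools. The part of these cell types in the Aldh1a1 result was not tested. Beside these marker counts, the shares over all genes were 8.12% lower and 6.59% higher.

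Aldh1a2 (chr9:71215789-71296243), the enzyme of the meninges and of the embryonic trunk, was dim except in 1 sample. Its log2 value was 5.04 in tumour 1 and 6.92 in tumour 2, against 5.26 and 5.24 in the pools. Only tumour 2 was raised, and tumour 1 lay below both pools. The difference was 0.73 with a 95% interval from -0.75 to 2.21 and an adjusted p of 0.478. Without tumour 1 it was 1.67 (adjusted p 0.00518), and without tumour 2 it was -0.21 (0.351), so its direction rests on tumour 2.

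Tumour 2 was also the sample in which 7 of the 12 meningeal and fibroblast markers were over 2-fold above tumour 1, and the 3 examples given first were chosen from these after their values were seen. The small matrix proteoglycan gene Dcn stood at 4.96 in tumour 1 and 9.23 in tumour 2, against 5.84 and 6.34 in the pools. Col1a1, a chain of fibrillar collagen, stood at 7.26 and 10.23, against 7.44 and 7.57 in the pools. Foxc1, a transcription factor gene of the meninges, stood at 5.20 and 7.23, against 5.44 and 5.35. Other markers of the list did not stand out in tumour 2. Ptgds was at 7.85 and 8.52, against 8.09 and 8.76 in the pools, and Foxd1 at 5.72 and 6.62, against 8.72 and 5.89. Slc47a1 and Alx4 differed by 0.15 and 0.071 between the tumours. Dcn, Col1a1 and Foxc1 moved the same way as Aldh1a2 (1.87 higher in tumour 2 than in tumour 1) and Aldh1a3 (1.79 higher), while the same difference for Aldh1a1 was -0.058. Some markers of other cell types were also over 2-fold higher in tumour 2 than in tumour 1. These were 3 of 8 endothelial, 2 of 8 pericyte and smooth muscle, 3 of 10 astrocyte and 2 of 7 oligodendrocyte markers. None of the microglia and macrophage, choroid plexus, neuron or oligodendrocyte progenitor markers was. The share of all genes over 2-fold higher in tumour 2 was not counted. The part of meningeal, fibroblast or any of these other cells in the values of tumour 2 was not tested.

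**Figure D2:**
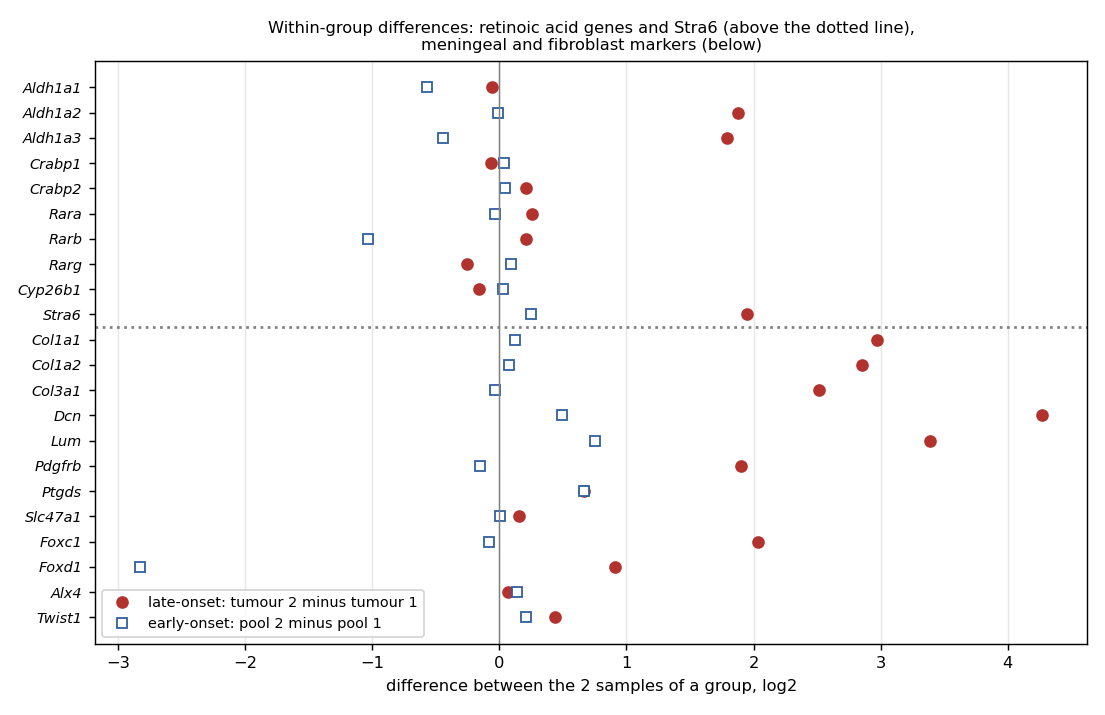
Difference between the 2 samples of a group on the log2 scale (x axis), as tumour 2 minus tumour 1 (red circles) and pool 2 minus pool 1 (open blue squares), for the 9 genes and the vitamin A transporter gene Stra6 above the dotted line and for 12 meningeal and fibroblast markers below it. Aldh1a2, Aldh1a3 and Stra6 stand 1.79 to 1.95 higher in tumour 2 than in tumour 1, and Dcn 4.27 higher.

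The closest relative of Aldh1a1, Aldh1a7, is its neighbour on chromosome 19 and a near copy of it, so how signal divides between their probe sets is uncertain. Aldh1a7 fell by 0.52 (adjusted p 0.0321), a call lost when any 1 of the 4 samples was left out (adjusted p 0.0747 to 0.175). The 2 measured genes on either side of Aldh1a3 (Chsy1, Lrrk1, Asb7 and Lins1) stood between 0.29 and 0.50, and none passed the test. Over the 726 genes of chromosome 7 above the median level, the median difference was 0.024 between groups and 0.056 between tumour 2 and tumour 1. On the other side of Aldh1a1 lies Anxa1, an annexin gene, which was at 4.86 in tumour 1 and 8.52 in tumour 2, against 6.27 and 5.62 in the pools. It did not follow Aldh1a1, and like Dcn and Col1a1 it was high in tumour 2. Between Anxa1 and Aldh1a1 lies 1500015L24Rik at -0.0585 (adjusted p 0.803), and beyond Aldh1a7 lies Tmc1 at 0.16 (0.547). With these, the 2 nearest measured genes on each side of Aldh1a1 and Aldh1a3 are given, taken by position.

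The receptor genes lay higher in late-onset cells, and 2 of the 3 passed the test. Rara (chr11:98927800-98974942) encodes the widely expressed receptor RAR alpha. Its log2 value was 8.38 and 8.64 in the tumours, against 7.49 and 7.46 in the pools. The groups were well apart and each was tight. The difference was 1.04 (SE 0.12, 95% interval 0.73 to 1.35, limma adjusted p 0.00853), a 2.05-fold higher level. The call was lost without pool 1 (adjusted p 0.0542) or pool 2 (0.0599), with the difference at 1.05 and 1.02.

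Rarb (chr14:16430839-17082331) encodes RAR beta, and the promoter with the element printed above is one of its promoters. The gene stood at 10.01 and 10.22 in the tumours, against 9.19 in pool 1 and 8.15 in pool 2. The tumours agreed closely and lay above both pools, which were 1.04 apart from each other. The difference was 1.44 (SE 0.34, 95% interval 0.59 to 2.30, limma adjusted p 0.0489), a 2.72-fold higher level. Its size turned on the pools, at 0.93 without pool 2 (adjusted p 0.0637) and 1.96 without pool 1 (0.0197), and the call was also lost without tumour 1 (0.087) or tumour 2 (0.131). Pool 2, the lower one, was the pool with the higher choroid plexus markers, and their part in its Rarb value was not tested. The probe set reads the gene as a whole and does not tell its isoforms apart.

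Rarg (chr15:102234938-102257522) encodes RAR gamma, a receptor of skin and developing cartilage. It stood at 8.87 and 8.62 in the tumours, against 8.29 and 8.38 in the pools. The groups did not overlap, but the gap between them was no larger than the spread between the tumours. The difference was 0.41 (95% interval 0.098 to 0.73, adjusted p 0.0907), so it did not pass, and it also missed in all 15 other settings.

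Among the 2 nearest measured genes on each side of Rara, Rarb and Rarg, only Thrb and Top2a passed the test. Over all genes 14.7% passed. The neighbours of Rarg lay between -0.13 (Zfp740) and 0.17 (Itgb7). Further out from Rarb, Ngly1 was at -0.19 (adjusted p 0.334) and Nr1d2 at -0.49 (0.234). Next to Rarb lies Thrb, which encodes a thyroid hormone receptor of the same superfamily, and it fell to 5.42 and 5.44 in the tumours, against 6.78 and 6.83 in the pools. Its difference of -1.37 (adjusted p 0.00285) was opposite in sign to that of Rarb, while Top2b on the other side stood at -0.039 (0.882). Close to Rara lies Top2a, the topoisomerase of dividing cells, which rose by 0.98 (adjusted p 0.00962). Between Top2a and Rara lies Gjd3 at -0.019 (0.932), and on the other side of Rara Cdc6, a DNA replication gene, stood at 8.83 and 8.71 in the tumours, against 8.22 and 7.58 in the pools. The difference of Cdc6 was 0.87 (0.0609), and Wipf2 beyond it was at -0.048 (0.80).

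Neither binding protein gene nor the degrading enzyme passed the test. Crabp1 (chr9:54764748-54773110), whose product holds retinoic acid in the cytoplasm, stood at 6.69 and 6.63 in the tumours, against 6.81 and 6.85 in the pools. Its difference was -0.17 with a 95% interval from -0.41 to 0.079 (adjusted p 0.327). A change of more than 2-fold either way lies outside that interval. Crabp2 (chr3:87948693-87953372), whose product delivers retinoic acid to the receptors, stood at 6.15 and 6.36 in the tumours, against 6.08 and 6.13 in the pools. The difference was 0.15 with an interval from -0.14 to 0.44 (adjusted p 0.463). Both genes lay below the median level of all genes, and RMA values understate the change of dim genes. Just beside Crabp2, the neural stem cell filament gene Nes rose by 1.34 (adjusted p 0.0136). On the other side Isg20l2 was at 0.37 (0.0614), and the next genes out, Rrnad1 (-0.35, 0.0687) and Bcan (-0.35, 0.146), did not pass either.

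Cyp26b1 (chr6:84571414-84593908), the retinoic acid hydroxylase of the hindbrain and limb, stood at 7.08 and 6.92 in the tumours, against 6.66 and 6.69 in the pools. Both tumours lay above both pools by a small margin. The difference was 0.33 (95% interval 0.062 to 0.60, adjusted p 0.106), and it missed the threshold in all 15 other settings.

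**Figure D3:**
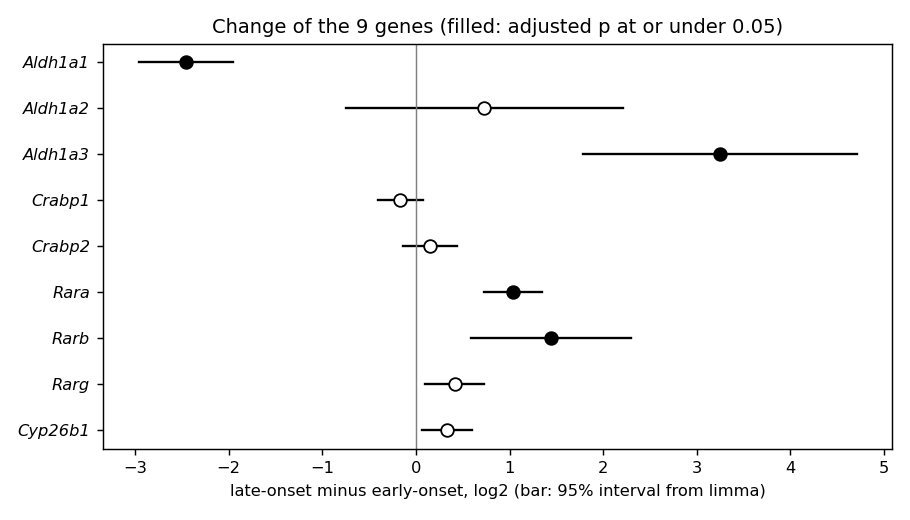
Late-onset minus early-onset difference on the log2 scale (x axis) for each of the 9 genes, with the 95% interval from limma as a bar and filled points for an adjusted p at or under 0.05. Aldh1a3 at 3.25 and Aldh1a1 at -2.46 lie furthest from 0, and the intervals of Aldh1a2 and Aldh1a3 are the widest.

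The wider retinoid system was read from 7 further lists with 101 genes, of which 95 were measured. Of these 5 rose and 11 fell, or 16.8%, against 14.7% of all genes, at a median of -0.062. The 95 include 17 other aldehyde dehydrogenases, several of them enzymes of other substrates, and these hold 6 of the 11 falls. None of the 18 retinol and retinal dehydrogenase genes rose and only Dhrs3 fell. Dhrs3 encodes the reductase that turns retinal back into retinol and is itself induced by retinoic acid in embryos. It fell to 7.35 and 8.17 in the tumours, against 9.58 and 9.66 in the pools, a difference of -1.86 (SE 0.27, adjusted p 0.0139). The call was lost without pool 1 (0.0698) or pool 2 (0.0823). Rdh10, which makes the retinal that the Aldh1a enzymes use, was at 9.32 and 9.05 in the tumours, against 9.15 and 9.27 in the pools. That is a difference of -0.021 with an interval from -0.35 to 0.31 (adjusted p 0.939), and the sign turned to 0.037 after each array was centred on its median.

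Among 11 measured genes of retinol uptake, binding and storage, 1 rose and 1 fell, or 18.2%, against 14.7% of all genes. Scarb1, a receptor for lipoproteins that also takes up carotenoids, rose by 0.47 (adjusted p 0.0465). That call was lost with quantile normalization (0.0652), cyclic loess (0.0764), the replicate number as a block (0.083) and all probe sets in the fit (0.102). It was also lost without pool 1 (difference 0.46), pool 2 (0.48) or tumour 2 (0.38). Bco2, which cleaves carotenoids, fell to 5.71 and 5.75 in the tumours, against 6.94 and 6.93 in the pools, a difference of -1.20 (adjusted p 0.00364). Stra6, the cell surface receptor that takes up retinol, was at 6.57 in tumour 1 and 8.52 in tumour 2, against 6.71 and 6.96 in the pools. It thus resembled Aldh1a2, with a raised value in tumour 2 alone (difference 0.71, adjusted p 0.512). Without tumour 2 the difference of Stra6 was -0.27.

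Of 17 other aldehyde dehydrogenase genes 6 fell and none rose, at a median of -0.40. That is 35.3% called, against 14.7% of all genes (8.12% lower). Aldh2, the mitochondrial enzyme that clears acetaldehyde, fell most, to 8.27 and 8.81 in the tumours, against 9.99 and 9.88 in the pools, a difference of -1.39 (adjusted p 0.0127). The amino acid and neurotransmitter enzymes Aldh6a1 (-0.75), Aldh5a1 (-0.72) and Aldh4a1 (-0.64) also fell, with adjusted p of 0.0476, 0.0115 and 0.0189. Without pool 2 none of these 4 calls held, with adjusted p of 0.0671 for Aldh2, 0.154 for Aldh6a1, 0.0836 for Aldh5a1 and 0.128 for Aldh4a1. Without pool 1 those of Aldh2 (0.0726), Aldh5a1 (0.0723) and Aldh4a1 (0.0814) were lost. The Aldh6a1 call was also lost without tumour 1 (difference -0.77) or tumour 2 (-0.73). Median centring (adjusted p 0.0552), array weights (0.056), the replicate block (0.0773) and all probe sets in the fit (0.105) lost it too. The Aldh4a1 call was lost without tumour 1 (difference -0.59) and with all probe sets in the fit (adjusted p 0.0551). Several of these genes are expressed by astrocytes, whose markers fell as given above, and the part of those cells was not tested. Aldh1a3 was thus the one measured gene among the 3 Aldh1a members and these 17 that rose.

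Of 6 genes for partners of the receptors and related factors, Rxrg and Nr2f2 fell and none of the other 4 passed the test. That is 33.3%, against 14.7% of all genes. Rxrg, an RXR of neural and muscle cells, stood at 5.84 and 5.57 in the tumours, against 6.59 and 6.73 in the pools, a difference of -0.96 (adjusted p 0.0127). Nr2f2, an orphan receptor that can bind the same repeats, stood at 6.29 and 7.23, against 8.80 and 8.67 in the pools, a difference of -1.98 (adjusted p 0.017). Rxra was at -0.55 (95% interval -0.90 to -0.21, adjusted p 0.0568) and Rxrb at -0.11 (-0.35 to 0.14, adjusted p 0.523). For Rxrb a 2-fold change lies outside that interval. Nr2f1, a close relative of Nr2f2, lay the other way, at 9.54 and 9.93 in the tumours, against 9.14 and 9.001 in the pools. Its difference of 0.66 (95% interval 0.26 to 1.06) just missed the threshold (adjusted p 0.051). Ppard, the receptor gene to which Fabp5 is linked, was at 0.13 (0.607). The calls of Rxrg and Nr2f2 were lost without pool 1 (differences -1.03 and -1.91) or pool 2 (-0.88 and -2.04). That of Nr2f2 was also lost with all probe sets in the fit (adjusted p 0.0531). Of 12 coregulator genes measured 25.0% passed, against 14.7% of all genes. Asxl1 (0.59, adjusted p 0.0393) and Med1 (0.45, 0.0467) rose and the coactivator gene Ncoa3 fell by 0.52 (0.0347). None of these 3 calls held when any 1 of the 4 samples was left out, with adjusted p from 0.0525 to 0.19 for Asxl1, 0.0598 to 0.226 for Med1 and 0.073 to 0.183 for Ncoa3.

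Of 30 measured genes known to respond to retinoic acid in embryos or cultured cells, 2 rose and 1 fell, or 10.0%, against 14.7% of all genes, at a median of -0.0092. This list does not hold the 9 genes, so Rarb (1.44) is not counted in it. The gene that fell was Dhrs3. Hoxa5, a homeobox gene of the posterior axis, rose to 7.74 and 6.64 in the tumours, against 4.92 and 5.14 in the pools, a difference of 2.17 (SE 0.36, adjusted p 0.0197). The call was lost with all probe sets in the fit (adjusted p 0.0585), and without pool 1 (difference 2.06) or pool 2 (2.27). Bhlhe40, a transcriptional repressor gene that hypoxia also induces, rose by 1.03 (adjusted p 0.0172). That call was lost with the replicate number as a block (0.055) and without pool 2 (difference 0.87). Cyp26a1, which shares the repeat of the Rarb promoter, stood at 4.94 and 4.95 in the tumours, against 4.83 and 4.78 in the pools. That is a difference of 0.14 with an interval from -0.097 to 0.39 (adjusted p 0.388), and its mean level was at percentile 16.4 of all genes. Of the 12 measured genes with the GTTCA pattern of Rarb, 1 rose and 2 fell, or 25.0%, against 14.7% of all genes. Their median was -0.022. The gene that rose was Rarb itself. Dmd, the dystrophin gene, fell by 1.34 (adjusted p 0.0051). Tnfsf13b, the cytokine gene of B cell survival, fell by 0.77 (0.0452). The Dmd match has T, where that of Rarb has A, before the last GTTCA.

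Of the 5 genes for other carriers and CYP26 enzymes, none passed. Fabp5, whose product can pass retinoic acid to another receptor, was at 0.17 (95% interval -0.39 to 0.74, adjusted p 0.671). Fabp7, the radial glia carrier, was at -0.24 (adjusted p 0.241). The probe sets of Fabp3 disagreed, with 0.41 (adjusted p 0.0759) for the brighter one and -0.51 (0.0355) for the other.

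**Figure D4:**
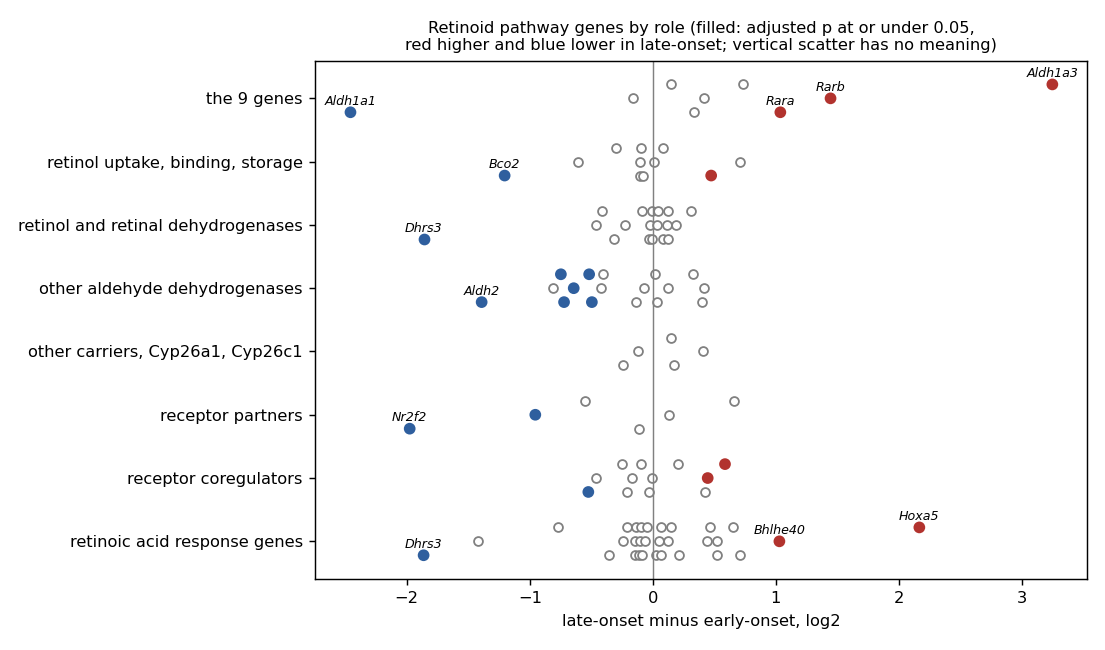
Late-onset minus early-onset difference on the log2 scale (x axis) of the 9 genes and of 7 further retinoid lists (rows), with filled points for an adjusted p at or under 0.05, red for higher and blue for lower in late-onset cells, and names at changes of at least 2-fold. Aldh1a3 at 3.25 is the highest point and Aldh1a1 at -2.46 the lowest, and the other aldehyde dehydrogenases hold 6 filled points, all lower.

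Genes with the profile closest to Aldh1a3 were sought over all genes, by the Euclidean distance between log2 values centred on each gene's mean over the 4 samples. The 5 nearest were Emp1 (distance 0.49), Postn (0.78), Akr1b8 (0.86), Cd109 (0.96) and Col18a1 (0.98). Akr1b8 encodes an aldo-keto reductase, and it stood at 7.03 and 8.24 in the tumours, against 5.29 and 4.97 in the pools. Emp1, a membrane protein gene, shared the step between the tumours, at 8.36 and 10.44, against 6.51 and 6.48 in the pools. The 5 nearest to Aldh1a1 were Cd300c2 (0.11), Havcr2 (0.13), Cp (0.16), Ly9 (0.19) and Gria1 (0.21). They hold the myeloid receptor genes Cd300c2 and Havcr2, the ceruloplasmin gene Cp and the glutamate receptor gene Gria1. With 4 samples that share their arrays and scaling, such distances describe these samples only.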

How the data were processed

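RNA of EGFP-sorted glioma cells from 4 samples, 2 per group, was measured on Affymetrix mouse arrays. The deposited values are log2 probe set summaries, and RMA and affy 3.4.2 are named in the submitters' processing notes, without parameters. They ran from 2.17 to 14.8, with array medians of 6.63 to 6.71. Since RMA equalises the arrays, a shift common to most genes would be hidden. The number of arrays limits the precision.

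Of 34760 probe sets, 21640 had 1 gene symbol in the platform annotation, 1321 several and 11799 none. Only the first were tested, with the brightest per gene, which gave 19937 genes (954 with several probe sets). Coordinates and promoters are from RefSeq GRCm38.p6. Symbols of all 9 genes matched it by Entrez identifier. Late-onset minus early-onset was fitted with limma 3.58.1 in R 4.3.3 (lmFit, eBayes, 2 residual and 3.27 prior degrees of freedom) and Benjamini-Hochberg adjustment. All adjusted p-values come from it, and 95% intervals from its moderated SE. On simulated data, with fewer changed genes than passed here, the procedure recovered 11.3% of log2 changes of 1 and 95.7% of changes of 2. Of its calls there, 1.32% and 3.9% were false. Changes near 2-fold can thus miss the threshold.

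The genes and lists were chosen with earlier results of these data known. Named were all 9 genes, up to 5 called genes per list by size (2 by moderated t where none was called), a fixed set of retinoid genes, and the 5 nearest profiles of the called genes with the highest and lowest change. Outside this rule, single markers, neighbours such as Thrb, Top2a and Nes, and Dmd, Tnfsf13b, Nr2f1 and Ppard were also named. Other settings are not given for these. Alternatives covered variance model, scaling, dim genes, probe sets, array weights, replicate number and each sample left out.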

Additional observations from a re-analysis of the deposited data

How the results depend on the processing

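Aldh1a1, Crabp1, Crabp2, Rarg and Cyp26b1 kept their direction and their side of the threshold in all 15 other settings. The Aldh1a3 call was lost with robust eBayes (3.25, adjusted p 0.0542), with all probe sets in the fit (3.25, 0.0652) and with the replicate number as a block (3.25, 0.0546), and its value ran from 2.35 to 4.14 when 1 sample was left out. The Rara value ran from 0.91 to 1.16 with 1 sample left out. The Rarb call was lost with robust eBayes (1.44, 0.0624), quantile normalization (1.39, 0.0555), cyclic loess (1.37, 0.0551), array weights (1.44, 0.059), the replicate block (1.44, 0.0843) and all probe sets (1.44, 0.108), and its value ran from 0.93 to 1.96 with 1 sample left out. Aldh1a2 ran from -0.21 to 1.67.

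Of the 9 genes 4 passed, against 2 with robust eBayes, 2 with the replicate block and 2 with all probe sets in the fit. Of the 95 other retinoid genes 16 passed, against 10 with the replicate block, 5 with all probe sets in the fit, and 1 to 13 with 1 sample left out. Over all genes 14.7% passed, against 9.19% with the block and 6.45% with all probe sets. With 1 pool left out, the lone pool is assumed to vary like the tumours. By construction, fewer samples, or more probe sets to adjust over, bear on which calls hold. For other lost calls the cause was not tested.

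The replicate numbers only name the samples: the deviations from the group means of same-numbered samples correlated at -0.044. Named genes that did not pass changed sign in these cases. With 1 sample left out, Stra6 ran from -0.27 to 1.68 (past the threshold without tumour 1, adjusted p 0.0081), Rdh10 from -0.15 to 0.11 and Fabp5 from -0.092 to 0.44. Rdh10 was 0.037 after median centring. Fabp3 was -0.050 as the mean of its probe sets and -0.51 by its other probe set. Signal over background was not among the values used here, so dim genes such as Aldh1a2, Crabp2 and Cyp26a1 have no detection limit.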
